A study of Mus musculus with 8 samples.

Results

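A set of 10 Notch pathway genes were followed in RNA from the mouse stomach corpus, the acid- and pepsinogen-secreting body of the stomach. They were the 4 receptors Notch1, Notch2, Notch3 and Notch4, the 3 ligands Jag1, Dll1 and Dll4, and the 3 target genes Hes1, Hey1 and Nrarp. They were chosen by name among the 54532 genes of the count table, and all 10 passed the low-count filter that left 15862 genes for testing. The control group comprised 4 mice of genotype Six2-Cre+/- PKAcaR wt/wt and the mutant group 4 mice of genotype Six2-Cre+/- PKAcaR fl/wt, so every animal carried the Cre driver and the groups differed in 1 PKAcaR allele. That allele is a conditional form of the gene for the protein kinase A catalytic subunit alpha, known to give a subunit that escapes its regulatory partner once Cre has recombined it. All mice were of mixed C57BL/6 X CD1 background and received no treatment. Their ages, and the corpus cells in which the driver is active, were not given in the sources used here. The series compared the groups to find genes whose expression differs between control and mutant corpus.

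Notch signalling passes between touching cells. A Jagged or Delta-like ligand on one cell binds a Notch receptor on its neighbour, proteases cut the receptor, and its intracellular part enters the nucleus and joins the DNA-binding protein RBPJ to switch on genes of the Hes and Hey families and Nrarp. In the stomach the pathway is known for keeping epithelial stem and progenitor cells dividing, and in blood vessels Dll4 and Notch4 of endothelial cells and Notch3 of mural cells are its best-known members.

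The libraries held between 18184281 and 23814720 counted reads. Prkaca, the gene of the altered allele, separated the groups: it lay between 77.1 and 86.0 CPM (read counts relative to the TMM-scaled library size) in controls and between 36.8 and 40.7 CPM in mutants, a log2 fold change of -1.08 (SE 0.085, edgeR adjusted p = 0.000604, n = 4 per group). Parietal and chief cell markers identified the controls as corpus, with summed levels of 14345 to 18303 CPM over 6 parietal genes, against 105 to 2223 CPM in mutants. One library stood apart. Mutant 2 correlated with the other mutants at r = 0.839 to 0.881 over log2 CPM of all tested genes, whereas every other pair within a group reached at least 0.977. Its 6 fibroblast markers summed to 36032 CPM, against 1388 to 2170 CPM in the other 3 mutants and 1285 to 1493 CPM in controls. Most of that sum was Col1a1, Col1a2 and Col3a1, at 10853, 9897 and 14167 CPM in mutant 2. There Pdgfra was 234 CPM, Dcn 680 CPM and Lum 202 CPM. In the other mutants these were 63.0 to 90.6, 177 to 231 and 36.1 to 44.6 CPM, respectively. Markers of the squamous forestomach, the tissue next to the corpus, summed to 154 CPM in control 3 and 510 CPM in mutant 3 and to at most 2.74 CPM in the other 3 mutants. The fold change of each member is given with and without mutant 2.

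The promoters of 2 genes are shown because Notch1 was the member that passed the test and Nrarp the target gene whose groups did not overlap. Both are the 250 bases before the transcription start in RefSeq (GRCm38.p6), written 5′ to 3′ on the gene's strand, Notch1 at chr2:26503823-26504072 on the minus strand and Nrarp at chr2:25180508-25180757 on the plus strand. Capitals mark an E-box (CACGTG, a sequence that HES and HEY proteins can bind) and a cAMP response element half-site (TGACG, here on the reverse strand and so read as CGTCA), the element through which protein kinase A acts on CREB-bound genes.
Notch1: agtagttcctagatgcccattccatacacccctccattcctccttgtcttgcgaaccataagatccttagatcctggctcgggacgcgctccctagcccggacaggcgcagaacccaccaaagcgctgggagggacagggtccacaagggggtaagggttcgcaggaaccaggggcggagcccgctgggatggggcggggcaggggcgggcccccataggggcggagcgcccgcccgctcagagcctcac
Nrarp: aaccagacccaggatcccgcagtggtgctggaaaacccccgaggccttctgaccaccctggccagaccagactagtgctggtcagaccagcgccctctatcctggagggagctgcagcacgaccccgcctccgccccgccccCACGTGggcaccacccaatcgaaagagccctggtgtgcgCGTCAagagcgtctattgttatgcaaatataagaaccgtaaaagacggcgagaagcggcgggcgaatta
In Nrarp the E-box lay 108 to 103 bases and the half-site 69 to 65 bases before the start. The same half-site was found in Notch3 (184 to 180 bases before the start) and Jag1 (167 to 163 bases), also on the reverse strand. Both strands were searched, and neither the full response element TGACGTCA, which contains the half-site, nor the RBPJ core TGGGAA was found in this window of the 8 members with a RefSeq promoter, Notch1, Notch2, Notch3, Notch4, Jag1, Dll1, Dll4 and Nrarp. Hes1 and Hey1 were not analysed here. Of 32817 promoters of the same length, 17.7% held the half-site, 1.55% the full element, 6.02% the E-box and 21.6% the RBPJ core. The Notch1 window was 66.0% G and C and the Nrarp window 61.2%, against a median of 52.4% over all promoters. The Notch1 start in RefSeq lies inside the span of the gene in the count table (2, 26457903 to 26516663), which begins further upstream.

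Notch1 rose in the mutants, and the other 9 members did not pass the test. Of the 10 members, 1 was higher and 0 were lower at an edgeR adjusted p of 0.05, where 9.39% of all genes tested were higher and 10.8% lower, together 20.2%. At an unadjusted p under 0.05, 6 members were higher and 0 lower, beside 18.9% and 17.5% of all genes tested. The median log2 fold change of the 10 members was 0.95, against 0.067 for all genes tested, and without mutant 2 these medians were 0.50 and 0.025. In 4 of the 10 genes (Notch1, Notch2, Dll4 and Nrarp) every mutant lay above every control, a pattern found in 14.2% of all genes tested. The number called depended on the fit. It was 0 without control 1, 2 or 3, where 4.08%, 4.79% and 4.32% of all genes were higher. With limma-trend on unfiltered log2(FPKM + 1) it was 0, where 2.83% were. DESeq2 called 6 higher (Notch1, Notch2, Notch4, Dll1, Dll4 and Nrarp) where 12.2% of all genes were, and limma-voom with sample weights called 3 (Notch1, Notch2 and Dll4) where 16.4% were. With raw column totals as library sizes all 10 were called, as were 59.5% of all genes. In edgeR without mutant 2 the members called were Notch1, Notch2 and Dll4 (15.2% of all genes were higher), and without mutant 3 they were Notch4 and Dll4 (9.56% higher, 10.2% lower).

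**Figure D1:**
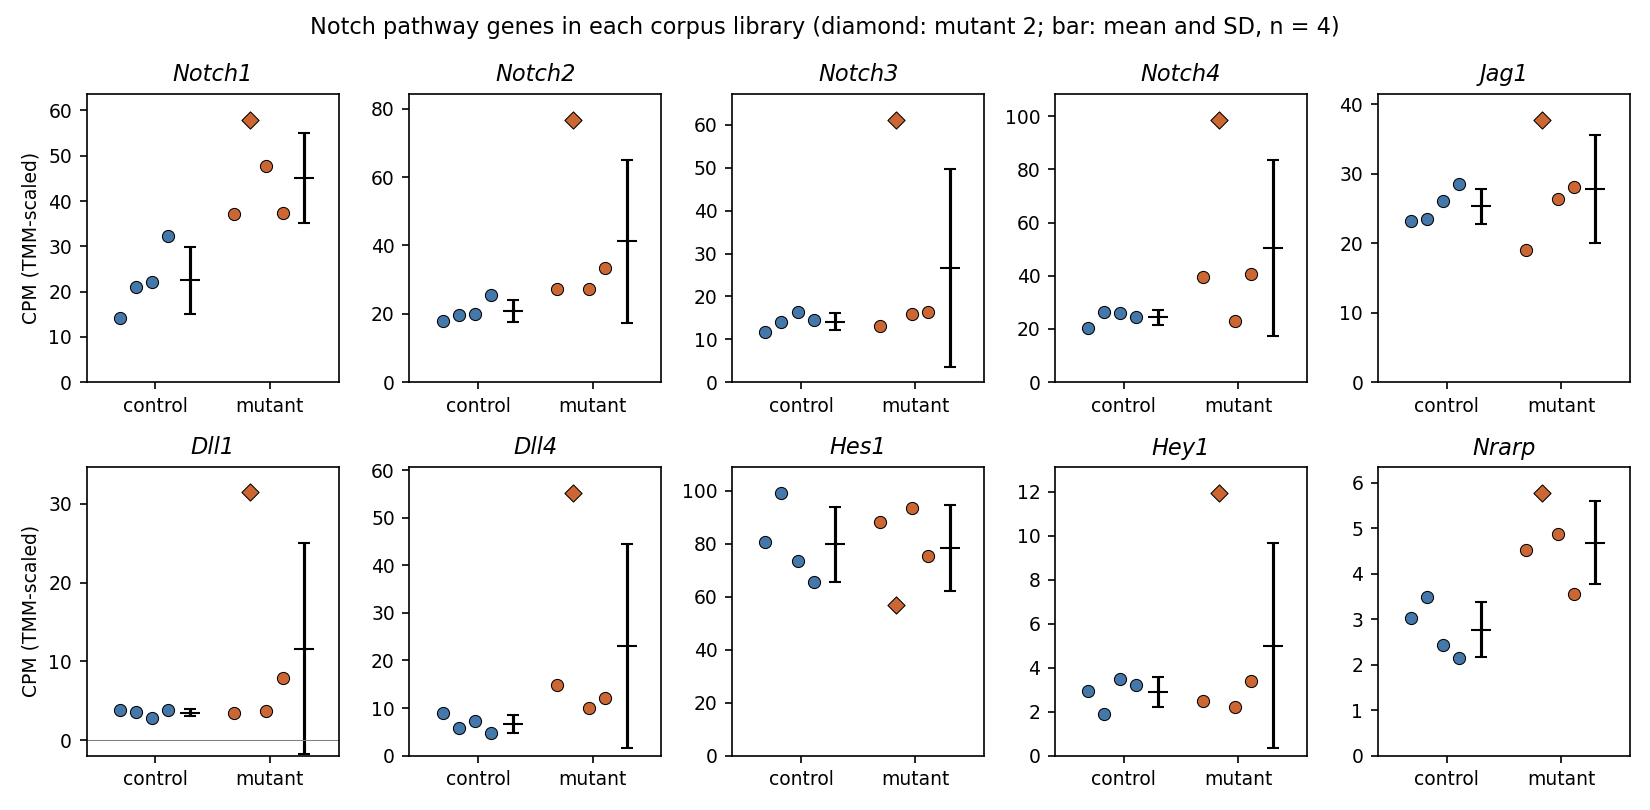
TMM-scaled CPM of each Notch pathway gene in the 4 control (blue) and 4 mutant (orange) libraries, with group mean and SD beside the points and mutant 2 as a diamond. Mutant 2 is the highest library for 9 genes and the lowest for Hes1, and the groups do not overlap for Notch1, Notch2, Dll4 and Nrarp.

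Among the receptors, Notch1, which is expressed in epithelial progenitors and in endothelium, measured 14.3, 21.1, 22.1 and 32.3 CPM in controls 1 to 4 and 37.2, 57.9, 47.7 and 37.5 CPM in mutants 1 to 4. The highest control lay just under the lowest mutant, so the groups were apart by a narrow margin. The log2 fold change was 1.01 (SE 0.256, edgeR adjusted p = 0.0285, n = 4 per group). Without mutant 2 it was 0.86 (SE 0.232, edgeR adjusted p = 0.0188). The call was however lost when control 1 (edgeR adjusted p = 0.0626), control 2 (0.0807), control 3 (0.0790) or mutant 3 (0.0523) was left out, while the log2 fold change stayed between 0.84 and 1.24 over the 8 fits that each left out 1 library. Leaving out control 3 and mutant 3 together gave an edgeR adjusted p of 0.124.

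Notch2, a second broadly expressed receptor, measured 18.0, 19.6, 19.9 and 25.5 CPM in controls and 27.4, 76.8, 27.3 and 33.4 CPM in mutants. The groups did not overlap, with 3 mutants just above the highest control and mutant 2 far above. The log2 fold change of 0.99 (SE 0.347) missed the threshold with an edgeR adjusted p of 0.0779. Without mutant 2 the estimate fell to 0.50 with a smaller SE of 0.141, and it passed (edgeR adjusted p = 0.0191).

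Notch3, the receptor of pericytes and arterial smooth muscle cells, measured 11.6, 14.1, 16.4 and 14.5 CPM in controls and 13.1, 61.2, 16.0 and 16.3 CPM in mutants. Outside mutant 2 the mutants lay within the control range. Its log2 fold change of 0.91 (SE 0.493, edgeR adjusted p = 0.218) became 0.10 (SE 0.154, edgeR adjusted p = 0.672) without that library.

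Notch4, the receptor most restricted to endothelium, measured 20.2, 26.5, 25.9 and 24.7 CPM in controls and 39.6, 98.7, 22.9 and 40.7 CPM in mutants. Mutant 3, which like control 3 held forestomach transcripts, lay within the control range while the other 3 mutants were above it. A log2 fold change of 1.05 (SE 0.401) did not pass (edgeR adjusted p = 0.0974). Without mutant 2 it was 0.50 (SE 0.191, edgeR adjusted p = 0.0660), and without mutant 3 it was 1.29 and passed (edgeR adjusted p = 0.0345).

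Of the ligands, none passed over all 8 libraries. Jag1, the Jagged ligand of vascular and epithelial cells, measured 23.2, 23.5, 26.1 and 28.6 CPM in controls and 19.0, 37.8, 26.3 and 28.1 CPM in mutants. The groups overlapped, with 1 mutant above and 1 below all controls. Its log2 fold change was 0.13 (SE 0.199, edgeR adjusted p = 0.663), and -0.05 without mutant 2.

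Dll1, a Delta-like ligand of secretory precursors in the gut and of arteries, measured 3.83, 3.56, 2.87 and 3.83 CPM in controls and 3.44, 31.5, 3.71 and 7.89 CPM in mutants. Mutants 1 and 3 lay within the control range, mutant 4 above it and mutant 2 far above it. The log2 fold change of 1.72 (SE 0.711, edgeR adjusted p = 0.120) was 0.51 (SE 0.310, edgeR adjusted p = 0.237) without mutant 2.

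Dll4, the ligand of endothelial tip cells and arteries that is also made by some gut epithelial cells, measured 8.98, 5.80, 7.34 and 4.67 CPM in controls and 14.8, 55.1, 10.05 and 12.1 CPM in mutants. Every mutant lay above every control, mutant 3 by the least. Its log2 fold change of 1.78 (SE 0.570) missed the threshold (edgeR adjusted p = 0.0599). It passed without mutant 2 at 0.88 (SE 0.232, edgeR adjusted p = 0.0133) and without mutant 3 at 2.03 (edgeR adjusted p = 0.0400).

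Of the 3 target genes, none passed and only Nrarp had groups that did not overlap. Hes1, the transcriptional repressor by which Notch holds back secretory cell fates, measured 80.7, 99.1, 73.7 and 65.5 CPM in controls and 88.2, 56.9, 93.3 and 75.3 CPM in mutants. The groups overlapped, and mutant 2, the highest library for 9 members, was the lowest for this one. The log2 fold change was -0.02 (SE 0.186, edgeR adjusted p = 0.935), 0.10 without mutant 2, and 0.67 when raw column totals served as library sizes. Under that scaling the median of all genes tested was 0.76 in place of 0.067, so relative to it Hes1 stood at -0.10.

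Hey1, a related repressor prominent in endothelium, measured 2.95, 1.91, 3.51 and 3.23 CPM in controls and 2.51, 11.9, 2.20 and 3.39 CPM in mutants. The mutants other than mutant 2 lay within the control range. Its log2 fold change of 0.79 (SE 0.572, edgeR adjusted p = 0.352) was -0.11 (SE 0.295, edgeR adjusted p = 0.814) without that library.

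Nrarp, a target that feeds back to limit Notch signalling, was among the least abundant members, with 36 to 141 reads per library. It measured 3.01, 3.49, 2.43 and 2.15 CPM in controls and 4.51, 5.77, 4.87 and 3.56 CPM in mutants, so that every mutant lay above every control, mutant 4 narrowly. This difference, a log2 fold change of 0.75 (SE 0.259), did not pass (edgeR adjusted p = 0.0722), nor did the 0.64 (SE 0.257) obtained without mutant 2 (edgeR adjusted p = 0.0764).

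**Figure D2:**
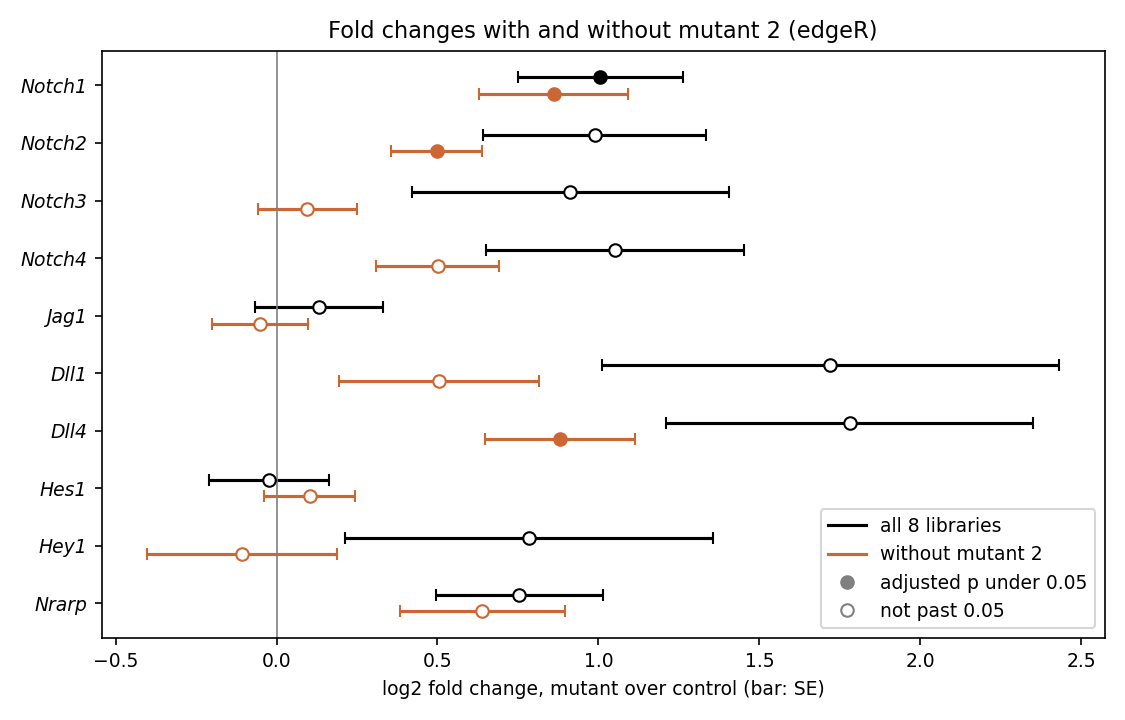
Log2 fold change (mutant over control) with its SE for the 10 genes from edgeR, over all 8 libraries (black) and over the 7 without mutant 2 (orange), filled where the adjusted p is under 0.05. Notch1 is filled in both fits, Notch2 and Dll4 only without mutant 2, and Notch3, Jag1, Hes1 and Hey1 lie within 0.11 of 0 without it.

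Mutant 2 was the highest mutant for 9 members, as it was for 38.8% of all genes tested, and the lowest for Hes1, as for 41.6% of all genes. In 6 members (Notch2, Notch3, Notch4, Dll1, Dll4 and Hey1) it was at least 2 times the mean of the other 3 mutants, which held for 18.2% of genes tested. The excess was 6.28-fold for Dll1, 4.48-fold for Dll4, 4.43-fold for Hey1, 4.05-fold for Notch3, 2.87-fold for Notch4 and 2.62-fold for Notch2, against 1.42-fold for Notch1 and 1.34-fold for Nrarp. Vascular and immune markers were high in the same library. The 10 endothelial markers summed to 1084 CPM there, the 5 pericyte markers to 600 CPM and the 8 immune cell markers to 509 CPM. In controls these sums ranged from 276 to 333, 226 to 341 and 57.8 to 67.7 CPM, respectively. The immune sum also lay above every control in mutants 1 and 4, at 105 and 114 CPM, and was 59.6 CPM in mutant 3. The part of vascular and immune cells in the levels of Notch genes in mutant 2 was not tested. In bulk tissue a change in the number of cells of a type and a change in RNA per cell cannot be told apart.

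In mutants 1, 3 and 4 the summed endothelial markers lay below every control, while Notch4 and Dll4 lay within or above the control range. Endothelial markers summed to 184, 195 and 199 CPM in mutants 1, 3 and 4, and pericyte markers to 99.9, 127 and 155 CPM. The pericyte sum rested on Rgs5, which made up 68.3% of it in controls: without Rgs5 the sums were 74.1 to 101 CPM in controls and 52.0, 59.8 and 84.2 CPM in these mutants, the last within the control range. Without mutant 2, 8 of the 10 endothelial markers and 2 of the 5 pericyte markers (Rgs5 and Cspg4) were lower in mutants by edgeR (18.3% of all genes tested were lower in that fit), whereas over all 8 libraries edgeR called 0 of either list, and 0 had an unadjusted p under 0.05, as 18.9% (higher) and 17.5% (lower) of all genes tested did. No endothelial or pericyte marker was at 0 reads in any library. The 8 smooth muscle markers were all lower with mutant 2 (beside 10.8% of all genes tested) and without it (18.3%). Their sums were 2968 to 3967 CPM in controls and 299 to 874 CPM in mutants. Of 6 epithelial markers, 2 were higher (Epcam and Cldn7) and 4 not called, where 9.39% of all genes tested were higher and 10.8% lower. Sums were 4680 to 8153 CPM in controls, 5921 to 7335 CPM in mutants 1, 3 and 4, and 1911 CPM in mutant 2. In mutant 2 Cdh1, Krt8, Krt18 and Krt19 lay below every control, while Epcam and Cldn7 were the highest of all libraries.

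The vascular members were therefore also read as log2 ratios to the summed CPM of their cell type's markers, which do not depend on the scaling between libraries. Notch3 over pericyte markers was -4.46, -4.01, -4.13 and -4.56 in controls and -2.93, -3.29, -2.99 and -3.24 in mutants. On this scale every mutant lay above every control. The difference of 1.17 had an exact permutation p of 0.0286 (two-sided, 70 assignments, the smallest they can give), which adjusted over the 10 shares and ratios tested was 0.114. This separation depended on Rgs5. With Rgs5 left out of the markers the ratio was -2.76, -2.39, -2.62 and -2.76 in controls and -1.99, -2.58, -1.90 and -2.37 in mutants. Mutant 2 then lay within the control range, and the difference was 0.42 (exact permutation p = 0.0571, adjusted 0.114). Dll4 over endothelial markers was -5.08, -5.57, -5.50 and -6.01 in controls and -3.64, -4.30, -4.28 and -4.03 in mutants, again without overlap. Its difference was 1.48 (exact permutation p = 0.0286, adjusted 0.114), and it stayed between 1.45 and 1.58 without overlap when each of the 10 markers was left out in turn. Notch4 over endothelial markers averaged -3.65 ± 0.22 in controls and -2.76 ± 0.61 in mutants (SD, n = 4), with mutant 2 at -3.46 within the control range (exact permutation p = 0.0571, adjusted 0.114). This overlap depended on Cdh5, which was 273 CPM in mutant 2 and 18.3 to 23.2 CPM in the other mutants. With Cdh5 left out, mutant 2 was at -3.04 and the highest control at -3.28, and the groups were apart. None of the 3 ratios thus passed after adjustment. With 70 assignments even separated groups can pass it only where most of the 10 values reach the smallest p, so no conclusion is drawn from this. Averaging the markers' log2 CPM in place of summing gave differences of 0.73 for Notch3, 1.67 for Dll4 and 1.07 for Notch4.

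**Figure D3:**
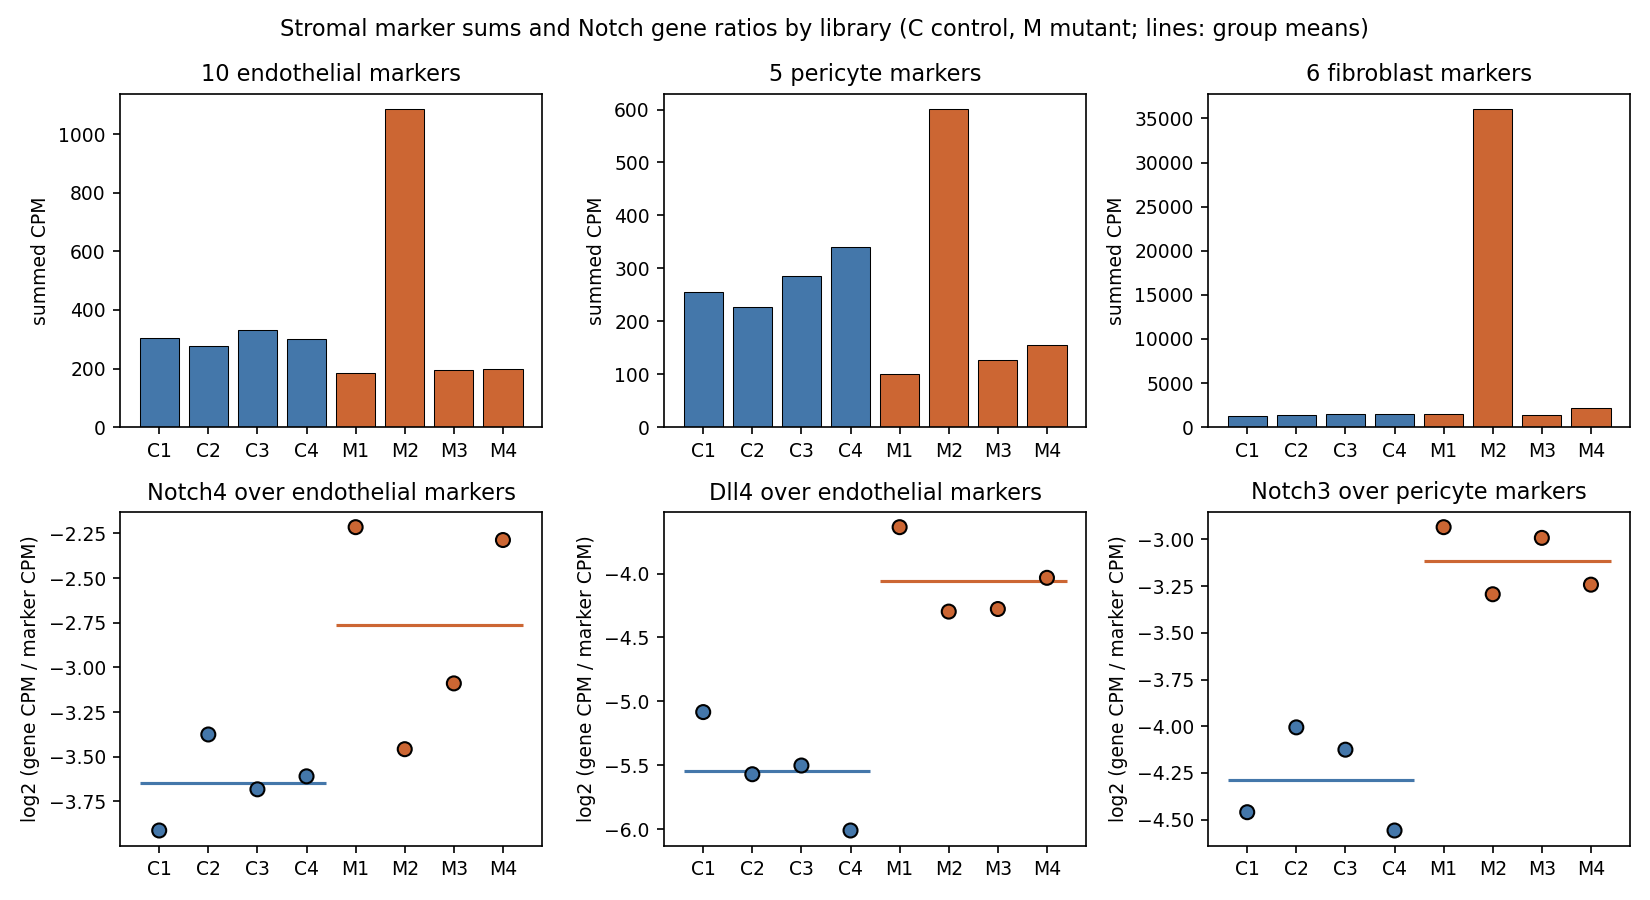
Top, summed CPM of endothelial, pericyte and fibroblast markers per library (C control, M mutant). Bottom, log2 ratio of Notch4 or Dll4 to the endothelial sum and of Notch3 to the pericyte sum, with lines at the group means. Mutant 2 has the highest marker sums, while its Dll4 and Notch3 ratios lie above all controls. Its fibroblast sum is mostly Col1a1, Col1a2 and Col3a1. The Notch3 separation is lost when Rgs5 is left out of the pericyte markers.

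Levels of different genes were compared on the length-scaled FPKM scale (fragments scaled by gene length and library size). In controls Hes1 was the most abundant at 38.8 ± 6.87 FPKM, followed by Jag1 at 4.31 ± 0.43 and Notch4 at 2.99 ± 0.35 (mean ± SD, n = 4), and these 3 did not overlap the next gene in the order. Notch2 (1.91), Notch3 (1.74), Dll4 (1.72), Notch1 (1.56), Nrarp (1.06), Hey1 (0.881) and Dll1 (0.827) followed, each overlapping its neighbour. In mutants Hes1 was again first at 38.2 ± 7.97 FPKM and apart from the rest. The order continued with Notch4 at 6.22 ± 4.09 FPKM, Dll4 at 5.93 ± 5.54 and Jag1 at 4.74 ± 1.31, and no neighbours from Notch4 down were apart. The place of Dll4 rested on mutant 2: over the other 3 mutants Notch4 averaged 4.24 ± 1.22 FPKM, Jag1 4.17 ± 0.81 and Dll4 3.17 ± 0.61 (SD, n = 3).

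None of the 4 receptor shares passed the exact permutation test. Notch4 made up 36.7% ± 3.12 of the summed receptor FPKM in controls and 36.8% ± 7.0 in mutants, and Notch2 23.3% ± 2.03 and 23.1% ± 1.06 (SD, n = 4). Notch1 made up 18.7% ± 3.72 and 21.8% ± 7.48, from 13.1% in mutant 2 to 31.3% in mutant 3. Notch3 accounted for 21.3% ± 1.91 and 18.2% ± 4.62. No mutant lay within the control range of the Notch3 share (19.0% to 23.6%): mutants 1, 3 and 4 were below it at 13.9%, 18.6% and 15.8%, and mutant 2 above it at 24.5%. Without mutant 2 the mutant minus control difference of the Notch3 share was -5.23 percentage points (exact permutation p = 0.0571, the smallest that 3 against 4 can give) and that of the Notch1 share 6.05 (exact permutation p = 0.171). The exact permutation p of the 4 receptor shares lay between 0.286 for Notch3 and 1.0 for Notch4, which does not show that the mixes were the same. Among the ligands Jag1 held 62.9% ± 6.03 in controls and 42.4% ± 14.4 in mutants, and Dll4 25.0% ± 6.31 and 40.9% ± 9.99. By library the Jag1 share was 55.1%, 63.2%, 63.4% and 69.8% in controls and 41.3%, 22.9%, 56.4% and 49.0% in mutants, so that mutant 3 alone fell within the control range. Neither difference passed the exact permutation test (p = 0.0571 each, adjusted 0.114).

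**Figure D4:**
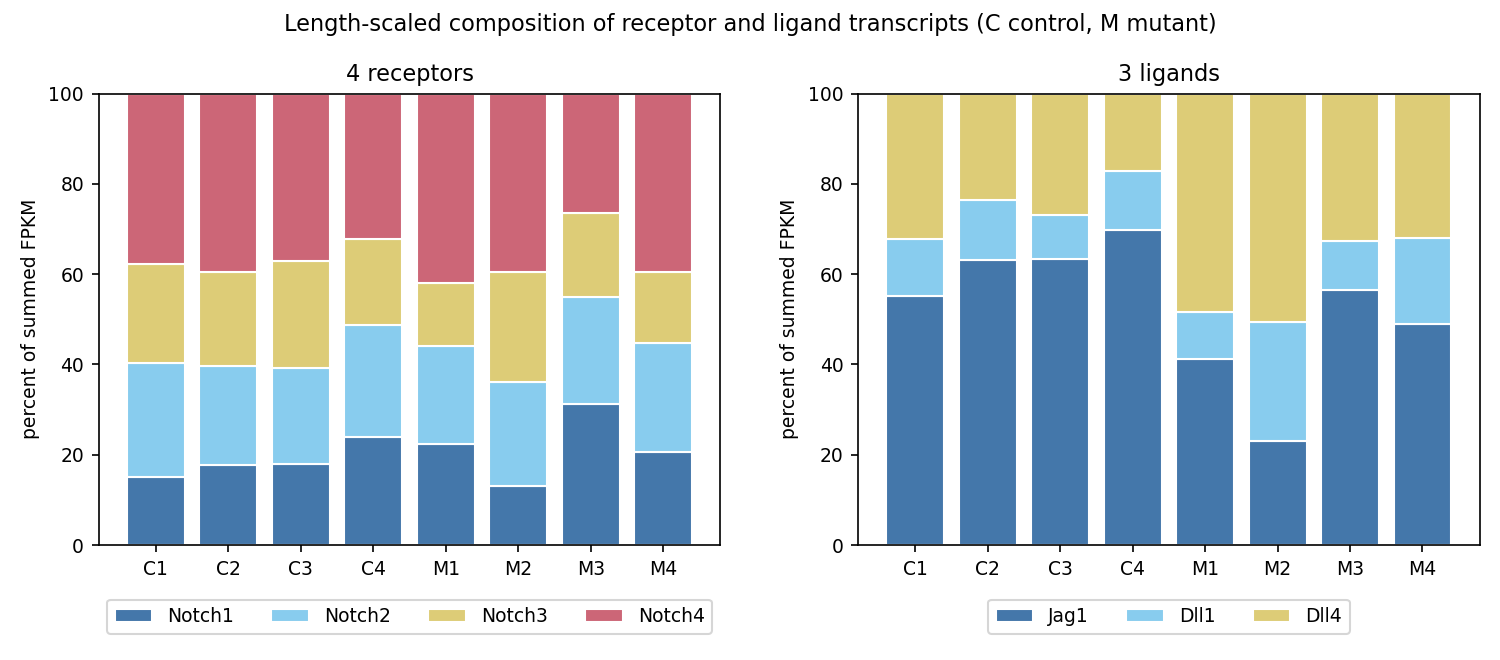
Share of each receptor in the summed FPKM of the 4 receptors (left) and of each ligand in that of the 3 ligands (right) for every library (C control, M mutant). Jag1 is the largest ligand share in all 4 controls, while Dll4 exceeds it in mutants 1 and 2.

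Read across libraries, the members did not form a single block. Over the 8 libraries the 45 pairs of members had a median Pearson r of 0.67 on log2 CPM, from -0.88 for Hes1 with Hey1 to 0.94 for Notch2 with Dll1. Without mutant 2 the median was 0.25 over 7 libraries, with Notch1 and Notch2 the most alike (0.89) and Hes1 and Hey1 the least (-0.91). These values are descriptions, since the libraries fall into 2 groups and share their scaling. The genes with a pattern most like Notch1, among 13631 compared over 8 libraries, were Ccnl1 (r = 0.989), a cyclin linked to pre-mRNA splicing, and Zfp90 (r = 0.989), a zinc finger gene. Within the groups, after removing the group means, their r with Notch1 was 0.979 and 0.972. Both genes were picked by their r over these same libraries, so these values are no separate support. Neither was called between groups, Ccnl1 with a log2 fold change of 0.32 (edgeR adjusted p = 0.0837) and Zfp90 with 1.08 (edgeR adjusted p = 0.0809).

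The rest of the pathway was listed by role, 48 genes of which 42 could be tested. In mutants 5 of these rose, 7 fell and 30 did not pass, beside 9.39% and 10.8% of all genes tested, and their median log2 fold change was 0.045. Without mutant 2, 7 rose and 9 fell, beside 15.2% and 18.3% of all genes tested in that fit. Of the other ligands, Jag2 measured 22.3 ± 1.62 CPM in controls and 14.1 ± 5.47 CPM in mutants (SD, n = 4), a log2 fold change of -0.66 (SE 0.279, edgeR adjusted p = 0.127) that passed without mutant 3 (0.0477). It was 0.04 with raw column totals as library sizes, where the median of all genes tested was 0.76. Dlk1, a non-canonical ligand, was at 0 to 36 reads with a log2 fold change of -1.72 (SE 1.12, edgeR adjusted p = 0.296), and of -4.52 (edgeR adjusted p = 0.000902) without mutant 2. Dll3 (0 to 13 reads) and Dlk2 (1 to 20 reads) were too low to test.

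Of the other targets 4 could be tested. Heyl, a Hey family gene of smooth muscle and pericytes, fell from 5.25 ± 0.75 to 2.72 ± 0.45 CPM (SD, n = 4). Its log2 fold change was -0.95 (SE 0.230, edgeR adjusted p = 0.0234), and the call was lost without control 1 (edgeR adjusted p = 0.0704), control 3 (0.0765), control 4 (0.0573), mutant 1 (0.0533) or mutant 4 (0.0643). It was -0.24 (edgeR adjusted p = 0.391) with raw column totals, where the median of all genes tested was 0.76. The smooth muscle markers fell in the same libraries, and their part in the change of Heyl was not tested. Dtx1, a ubiquitin ligase gene that Notch induces, had a log2 fold change of -1.30 (SE 0.521, edgeR adjusted p = 0.111) and passed at -1.99 (edgeR adjusted p = 0.00156) without mutant 2. The targets Hes6 (-0.14) and Hey2 (-0.65) did not pass, and Hes2, Hes3, Hes5 and Hes7 were too low to test.

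In the nuclear complex 1 gene rose, 1 fell and 8 did not pass, beside 9.39% higher and 10.8% lower among all genes tested. Rbpj, the DNA-binding partner of every Notch receptor, measured 26.1, 24.7, 26.4 and 35.5 CPM in controls and 29.1, 59.1, 31.2 and 30.9 CPM in mutants. Apart from mutant 2 the libraries overlapped, and the log2 fold change of 0.41 (SE 0.251) did not pass (edgeR adjusted p = 0.268). It was 0.11 (SE 0.137, edgeR adjusted p = 0.581) without mutant 2. Its paralog Rbpjl, which is known from acinar cells of the pancreas and does not bind Notch, had the lowest log2 fold change of the 42 genes. It measured 32.5, 24.4, 33.6 and 19.0 CPM in controls and 3.17, 0.818, 4.53 and 4.59 CPM in mutants, with no overlap. The log2 fold change was -3.06 (SE 0.493, edgeR adjusted p = 0.00535), and the call held when any 1 library was left out. The summed chief cell markers fell in the same direction, from 260962 to 460477 CPM in controls to 973 to 38863 CPM in mutants. Pgc made up nearly all of that sum, with a control mean of 309729 of 313673 CPM. Of 4 chief cell markers tested, edgeR called 1 lower (10.8% of all genes were), and 3 without mutant 2 (18.3%). Their log2 fold changes were -4.23 for Pgc, -1.90 for Gif, -1.57 for Bhlha15 and -0.08 for Pga5. The part of these markers in the level of Rbpjl was not tested. Spen, a corepressor of RBPJ, rose by 0.53 (SE 0.148, edgeR adjusted p = 0.0390). That call was lost without control 1, 2 or 3 or mutant 1 or 4 (edgeR adjusted p = 0.0901, 0.103, 0.0948, 0.0782 and 0.0894).

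The enzymes that glycosylate the receptors gave 1 rise and no fall among 5 tested, beside 9.39% and 10.8% of all genes tested. Pofut1, which adds O-fucose to the receptors, rose from 26.1 ± 2.38 to 38.9 ± 8.41 CPM (SD, n = 4), a log2 fold change of 0.58 (SE 0.157, edgeR adjusted p = 0.0355). The call was lost without any 1 control (edgeR adjusted p = 0.0695 to 0.102) or mutant 4 (0.0616). The fringe genes, whose products extend that sugar, did not pass: Lfng had a log2 fold change of 0.85 (SE 0.353), Mfng 1.00 (SE 0.737) and Rfng -0.07 (SE 0.183), with edgeR adjusted p of 0.121, 0.359 and 0.814. Mfng was 20.9 CPM in mutant 2 and 2.51 to 3.09 CPM in the other mutants, and without mutant 2 its log2 fold change was -0.41 (edgeR adjusted p = 0.262), that of Lfng 0.38 (0.130) and that of Rfng 0.07 (0.734). The glucosyltransferase gene Poglut1 stood at 0.25 (edgeR adjusted p = 0.268), and at 0.11 (0.520) without mutant 2.

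The proteases that cut the receptors held 6 of the 12 calls in these lists: 3 rose and 3 fell of 10 tested, beside 9.39% and 10.8% of all genes tested. Both metalloproteases that make the cut outside the membrane rose. Adam17 measured 33.5, 35.7, 34.02 and 37.2 CPM in controls and 49.7, 72.9, 52.1 and 59.4 CPM in mutants (log2 fold change 0.74, SE 0.133, edgeR adjusted p = 0.00815). Adam10 rose by 0.63 (SE 0.156, edgeR adjusted p = 0.0249), a call lost without control 1 (0.0680), control 3 (0.0567), mutant 1 (0.0581) or mutant 4 (0.0611). Within gamma-secretase, the complex that releases the intracellular part, the subunits went different ways. Nicastrin (Ncstn) rose from 103, 113, 106 and 117 CPM to 170, 156, 162 and 157 CPM, with no overlap (log2 fold change 0.55, SE 0.094, edgeR adjusted p = 0.00636). The catalytic subunit gene Psen2 fell by 0.55 (SE 0.120, edgeR adjusted p = 0.0167), but not without control 3 (0.0549). Its log2 fold change was 0.16 (edgeR adjusted p = 0.242) with raw column totals as library sizes, where the median of all genes tested was 0.76. Aph1c fell from 14.3 ± 1.05 to 2.43 ± 0.89 CPM (log2 fold change -2.55, SE 0.285, edgeR adjusted p = 0.00155). It is nearly identical to Aph1b (log2 fold change 0.38, edgeR adjusted p = 0.229), and reads of the pair may have been split between them by the counting. Furin, the convertase that matures the receptors in the Golgi, fell from 1522 ± 682 to 399 ± 150 CPM (log2 fold change -1.93, SE 0.420, edgeR adjusted p = 0.0165), a call lost without mutant 4 (0.0507).

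Of 11 genes for endocytosis and turnover, 2 fell and 9 did not pass, where 10.8% of all genes tested fell. Both are neuralized ubiquitin ligases, which drive uptake of ligands. Neurl1a fell from 7.80 ± 1.12 to 3.81 ± 0.78 CPM (log2 fold change -1.03, SE 0.220, edgeR adjusted p = 0.0147). Neurl1b fell from 17.7 ± 3.22 to 7.24 ± 3.34 CPM (log2 fold change -1.29, SE 0.314, edgeR adjusted p = 0.0242), a call lost without control 1 (0.0763), control 2 (0.0671), control 4 (0.0533) or mutant 4 (0.0668). With raw column totals neither passed, at -0.34 (edgeR adjusted p = 0.250) and -0.59 (edgeR adjusted p = 0.150), where the median of all genes tested was 0.76. When control 3 and mutant 3, the libraries with forestomach transcripts, were left out together, 1 gene of the lists rose (Adam17) and 2 fell (Rbpjl and Aph1c), beside 3.67% and 5.14% of all genes tested.

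**Figure D5:**
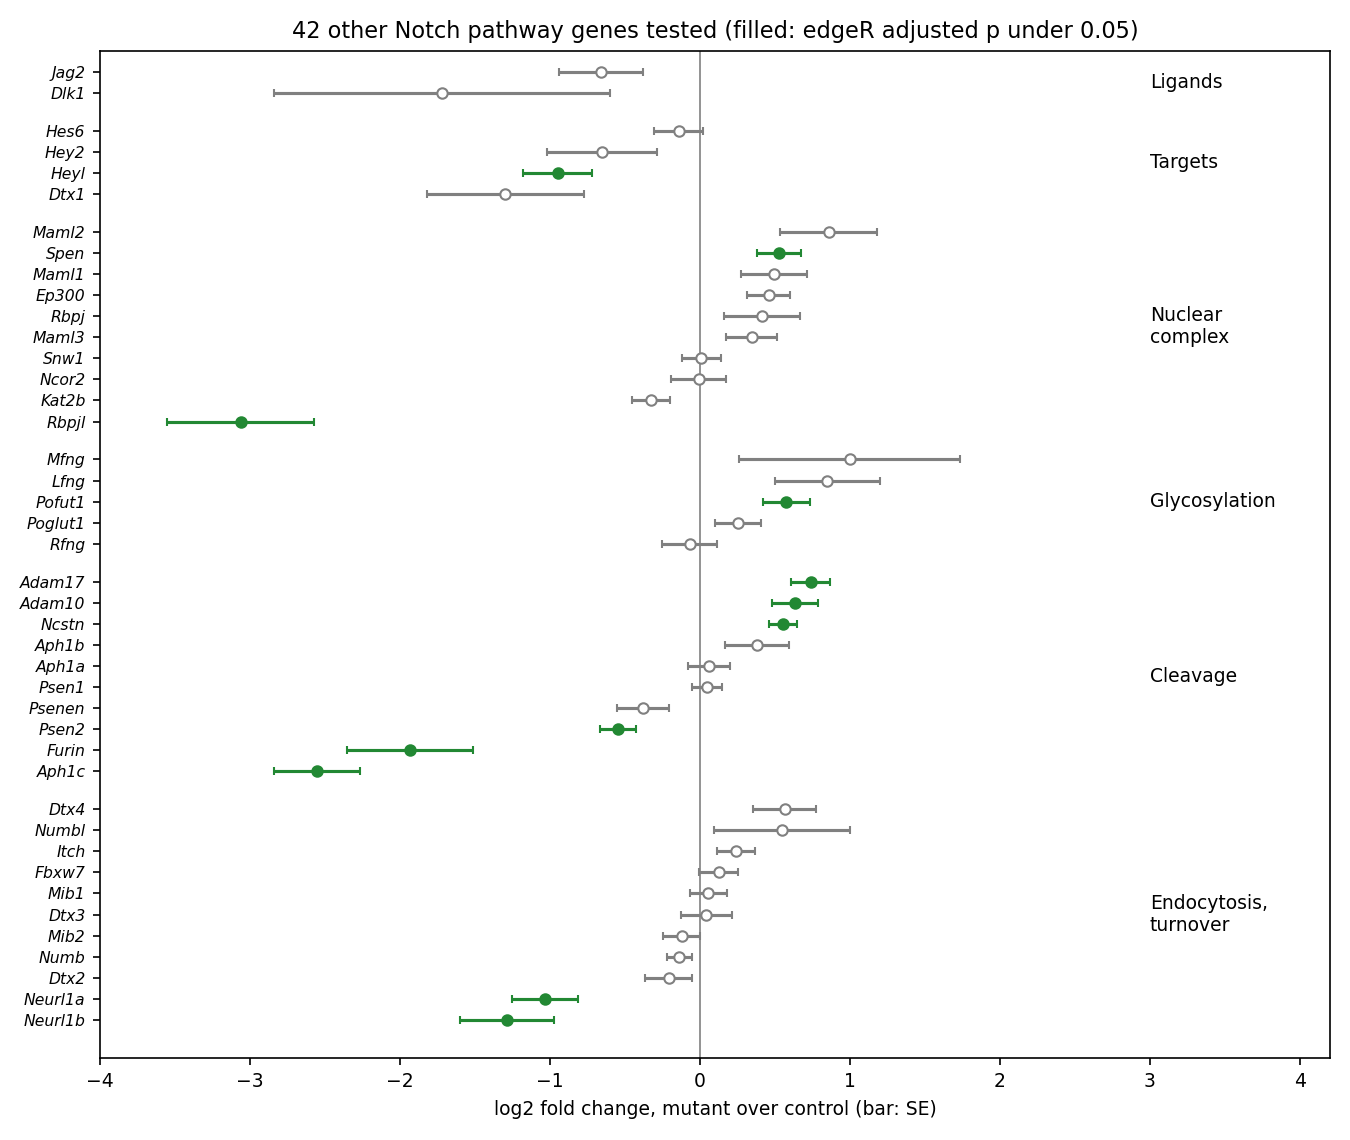
Log2 fold change (mutant over control) with its SE for the 42 other Notch pathway genes tested, grouped by role and sorted within a role, filled green where the edgeR adjusted p is under 0.05. Filled points lie on both sides of 0 among the proteases, and Rbpjl and Aph1c are the furthest to the left.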

How the data were processed

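Per the labels' protocols, polyA RNA of the corpus of 8 mice was kept in RNAlater, isolated with Trizol and sequenced with NEBNext Ultra libraries. The deposited tables hold unnormalized counts and, in a second file, FPKM. The submitters' processing notes name STAR 2.5, featureCounts, fastp and CASAVA but not what each did. Neither build nor strandedness is given in the sources used here, so overlapping, antisense or near-identical genes are uncertain. Start and end in the deposited table equalled those of the GRCm38 annotation GENCODE M21 for 53499 of 54409 shared genes and for 9 of the 10 members. Deposited FPKM of the members equalled counts over gene length and a library size of 1.00 to 1.01 times the TMM size, so FPKM fits are no separate check of scaling.

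Columns were matched to samples by name, with SCI in the headers taken as control 1 (SC1). Each library is a separate biological replicate per the series' design text. All pairs within a group differed by more than counting noise (chi-square over degrees of freedom at least 14.2). A floor of 3 counts was 0.100 to 0.198 CPM, for counting error only.

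Genes kept by filterByExpr were scaled by TMM and tested in edgeR 4.0.16 (R 4.3.3), by the quasi-likelihood F test with robust fitting, over all 15862 genes, called at a Benjamini-Hochberg adjusted p under 0.05. The SE is the unshrunk log2 coefficient over the square root of F. Shares and marker ratios were tested by exact two-sided permutation of the 8 libraries. The scripts were tested on simulated data. The alternatives included limma-voom with sample weights (limma 3.58.1), DESeq2 1.42.0, RLE factors, TMM outside gland and muscle genes, column totals, no or a stricter filter, a replicate block, libraries left out, a threshold of 0.01, each marker left out of the ratios (added after seeing the data), and limma-trend on log2(FPKM + 1) and log2(FPKM + 0.1).

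The members, lists and tests were chosen with earlier results of these data known. Named were all members, Prkaca, Rbpj, the 2 genes of smallest adjusted p in each other list (all in lists of up to 5 genes), and the 2 genes most correlated with a called member. Adam10, Adam17, Furin, Psen2, Aph1b, Hes6, Hey2 and the untested genes were added after their values were seen.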

Additional observations from a re-analysis of the deposited data

Results flagged for a closer look

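In groups of 4 libraries, a value was singled out where its gap to the nearest other library passed Dixon's limit, which chance passes in about 1 group in 20. Of 40 groups looked at, 6 held such a value, and 5 of these were mutant 2. Notch2 stood at 76.8 CPM in mutant 2, against 27.3 to 33.4 CPM in the other 3 mutants. Notch3 stood at 61.2 CPM there, against 13.1 to 16.3 CPM. For the ligands, Dll1 was 31.5 CPM in mutant 2 and 3.44 to 7.89 CPM in the others, and Dll4 was 55.1 CPM against 10.05 to 14.8 CPM. The target gene Hey1 was 11.9 CPM in mutant 2 and 2.20 to 3.39 CPM in the others. The sixth value was the share of Notch4 among the 4 receptors, which was 26.5% in mutant 3 and 39.4% to 42.02% in the other mutants.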

How the results depend on the processing

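The count of genes past the threshold, 3208, became 4930 with DESeq2, 5668 with limma-voom, 10165 with column totals, 1410 without control 3 and mutant 3, and 1047 at a threshold of 0.01. Members called higher numbered 6 with DESeq2 (Notch1, Notch2, Notch4, Dll1, Dll4 and Nrarp, where 12.2% of genes were higher), 3 with limma-voom (Notch1, Notch2 and Dll4, where 16.4% were) and 10 with column totals (59.5%). They numbered 0 without control 3 and mutant 3 (3.67%), at the threshold of 0.01 (1047 of 15862 genes in either direction) and with unfiltered log2(FPKM + 1) (2.83%). Other pathway genes called higher numbered 27 with column totals (59.5% of all genes), 1 without control 3 and mutant 3 (3.67%) and 2 at 0.01. Those called lower numbered 3 (4.55%), 2 (5.14%) and 2. The counts at 0.01 stand beside 1047 of 15862 genes called in either direction. With column totals Hes1 turned to 0.67 (adjusted p = 0.0149) and Psen2 to 0.16 (adjusted p = 0.242). The median of all genes rose by that scaling, and the cause of the other changes was not tested. Leaving out 1 library at a time gave 1717 to 5400 genes, 0 to 3 members higher, 0 to 0 lower, 2 to 7 other genes higher and 4 to 9 lower, and a member median of 0.50 to 1.11. In those fits 4.08% to 15.2% of all genes were higher and 6.23% to 18.3% lower. No member was called lower under any of the 21 alternatives.

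Same-numbered controls and mutants did not deviate together over all genes tested (correlations -0.09 to 0.06). That cannot exclude a pairing by number, and control 3 and mutant 3 were the libraries with forestomach transcripts. With the replicate number as a block, 1824 genes, 0 members and 1 other pathway gene higher were called, where 4.71% of all genes were higher and 6.79% lower. Notch1 (adjusted p = 0.0522), Ncstn (0.0508), Heyl (0.0858), Spen (0.0789), Pofut1 (0.114) and Adam10 (0.0696) missed the threshold there.

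Leaving each marker out of its list in turn, chosen after seeing the data, moved the Notch4 ratio between 0.85 and 0.98 (without Cdh5) and the Notch3 ratio between 0.42 (without Rgs5) and 1.35. The Notch4 groups were apart only without Cdh5.

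Members of 3 CPM rest on few reads (Hey1 from 29, Nrarp from 36), which limits their precision.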
